A study of Mus musculus with 6 samples.

Results

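Immunoglobulin variable genes are the V segments of the antibody loci, and they were taken here as every gene whose symbol begins with Ighv, Igkv or Iglv followed by a digit. There were 348 of them among the 45777 genes in the tables, namely 183 heavy chain segments on chromosome 12, 162 kappa light chain segments on chromosome 6 and 3 lambda light chain segments on chromosome 16. RNA was sequenced from T cells sorted by flow cytometry from the spleen of female C57BL/6 mice aged 7 weeks, with no transgene, deletion or treatment named for either group. CD4+Lrig1+ T cells carry on their surface Lrig1, a leucine-rich repeat protein that restrains growth factor receptors, and CD4+Lrig1- T cells do not. The question of the comparison is how the transcriptome of CD4+ T cells that display Lrig1 differs from that of CD4+ T cells that do not. Of the 6 samples in the labels, 3 in each group, 4 libraries in 2 deposited tables had a column that names the group, so that each table, called a set here, held 1 library of CD4+Lrig1+ and 1 of CD4+Lrig1- T cells.

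In developing B cells, V(D)J recombination joins 1 V segment to a D and a J segment at the heavy chain locus, and 1 V segment to a J segment at the kappa or lambda locus. The promoter in front of the joined V segment then becomes active, and the transcript runs through the V, D and J parts into the constant region. Variable region RNA is therefore a product of the B lineage, and plasma cells make the most of it. T cells assemble the receptor genes of their own instead, among them the Trbv segments of the beta chain, and can transcribe unrearranged immunoglobulin heavy chain constant genes without making an antibody.

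The 3' end of a V segment encodes the end of the framework that leads into the third complementarity-determining region, the most variable loop of the antibody. The last 60 bases of the segments with the highest levels of each chain are shown because the results turn on how far reads can tell such segments apart. They were read from the GENCODE M21 transcripts of GRCm38 in the 5′ to 3′ direction of the gene. Capitals mark 9 bases that match TANTNNTGN on the sense strand, the codons for tyrosine, then tyrosine or phenylalanine, then the conserved cysteine before the loop. The heavy chain segments lie on the minus strand at chr12:114140692-114141122 for Ighv9-3, chr12:114788372-114788805 for Ighv1-26 and chr12:115208095-115208591 for Ighv1-55.
Ighv9-3: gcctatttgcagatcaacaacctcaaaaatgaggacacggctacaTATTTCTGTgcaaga
Ighv1-26: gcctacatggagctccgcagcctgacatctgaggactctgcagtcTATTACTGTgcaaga
Ighv1-55: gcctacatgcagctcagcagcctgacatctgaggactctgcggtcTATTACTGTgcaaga

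The kappa segments shown lie at chr6:69900424-69900977 on the minus strand for Igkv5-39, and on the plus strand at chr6:68121046-68121827 for Igkv1-117 and chr6:68270485-68271267 for Igkv1-110.
Igkv5-39: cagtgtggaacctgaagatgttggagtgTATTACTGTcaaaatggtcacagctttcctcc
Igkv1-117: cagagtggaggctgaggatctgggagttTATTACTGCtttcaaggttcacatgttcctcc
Igkv1-110: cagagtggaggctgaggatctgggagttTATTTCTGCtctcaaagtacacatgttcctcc

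The 2 near-identical lambda segments lie on the minus strand at chr16:19085017-19085500 for Iglv1 and chr16:19260401-19260859 for Iglv2.
Iglv1: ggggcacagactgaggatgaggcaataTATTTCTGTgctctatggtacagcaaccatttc
Iglv2: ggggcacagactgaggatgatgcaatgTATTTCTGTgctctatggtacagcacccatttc

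Of the 346 segments with a GENCODE transcript, 284 (82.1%) held the marked letters within the last 45 bases. Over the last 200 bases Igkv1-117 and Igkv1-110 were 96.5% identical and Iglv1 and Iglv2 97.5%, whereas Ighv9-3 and Ighv1-26 were 60.5% identical. Every window of 50 bases of Igkv5-39, Igkv19-93 and Iglv3 was found in no transcript of another gene. For Igkv1-117, Igkv1-110, Ighv1-26 and Ighv1-55 the share of such windows was 50.1%, 49.1%, 51.0% and 62.0%. The authors' counting could thus split reads among these segments and their near copies, and single values of these segments are uncertain. How far is not given by the share, since reads were paired and the mate of a shared read can still place the pair. The share was 100% for 86 of the 346 segments.

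The libraries held between 44865070 and 59977951 estimated counts on genes. Lrig1 itself stood at 221 CPM (counts scaled to a common library size by TMM, the trimmed mean of M values) in the CD4+Lrig1+ library and 75.4 in the CD4+Lrig1- library of set 1, and at 129 and 36.7 CPM in set 2, so that it was higher with surface Lrig1 in both sets. The 11 T cell markers, among them Cd3e, Cd4 and Trac, were all present, with summed levels of 5602 to 9177 CPM. The 14 B cell markers, none of them an immunoglobulin gene, were also all present, and their sum was 122 and 101 CPM with and without Lrig1 in set 1, and 450 and 883 CPM in set 2. The 2 sets thus stood apart in B cell RNA, and in bulk RNA more B cells and more RNA per B cell cannot be told apart. They also differed in the T cell markers, at 5859 and 5602 CPM in set 1 and 9174 and 9177 CPM in set 2. What made the sets differ was not tested. Nothing in the labels says that the samples of a group came from separate mice, so the p-values measure only the spread between libraries, which may be technical.

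Variable gene RNA summed to 29.0 to 623 CPM over the 4 libraries and was lower in CD4+Lrig1+ than in CD4+Lrig1- T cells of set 2 for each chain, while in set 1 the libraries were close except for lambda. Summed over the 183 heavy chain segments, the level was 11.2 CPM with Lrig1 and 12.6 CPM without it in set 1, from 582 and 602 counts, and 72.3 and 158 CPM in set 2, from 4150 and 8544 counts. The CD4+Lrig1+ to CD4+Lrig1- ratio of the heavy chain sums was 0.890 in set 1, with an exact 95% interval of 0.793 to 0.999, and 0.457 (0.440 to 0.474) in set 2. Both ratios were below 1, and the 2 intervals did not overlap. These intervals, and the others given for ratios and shares, cover counting error only, since PCR reads without molecular identifiers are not independent molecules.

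Kappa segments gave more counts than the heavy chain segments in every library. Their sum was 16.4 CPM with Lrig1 and 16.5 CPM without it in set 1, and 198 and 417 CPM in set 2. The ratio was 0.994 (0.901 to 1.10) in set 1, a difference not detectable at this depth, and 0.475 (0.464 to 0.486) in set 2. The 3 lambda segments summed to 1.48 and 2.30 CPM in set 1 and to 25.1 and 47.8 CPM in set 2, with ratios of 0.645 (0.475 to 0.870) and 0.526 (0.493 to 0.561). Lambda was the chain in which this ratio was closest between the sets, with intervals that overlapped. The wide interval of set 1 rests on 77 and 110 lambda counts.

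Set against the spread between libraries of a group, the differences between groups were small. The heavy chain sum was 41.7 ± 43.2 CPM (SD, n = 2) in CD4+Lrig1+ and 85.4 ± 103 CPM (SD, n = 2) in CD4+Lrig1- T cells, and the kappa sum was 107 ± 129 and 217 ± 283 CPM. The mean log2 difference, CD4+Lrig1+ minus CD4+Lrig1-, was -0.65 for heavy, -0.54 for kappa and -0.78 for lambda segments, each with an exact permutation p of 0.667, two-sided, where 2 libraries against 2 cannot go below 0.33. The 3 chains share their libraries and are not independent, and adjustment over these 3 tests leaves p at 0.667. Without the CD4+Lrig1+ library of set 1 the differences turned to 0.70, 1.26 and 1.26, and leaving out set 2's CD4+Lrig1- library gave 1.18, 1.79 and 1.41. Both libraries of set 2 were above both libraries of set 1 for each chain. The set 2 to set 1 ratio for CD4+Lrig1+ T cells was 6.46 for heavy, 12.1 for kappa and 17.0 for lambda, and for CD4+Lrig1- T cells it was 12.6, 25.4 and 20.8. The sum over the 35 Trbv segments, which T cells rearrange, differed less between sets, with 397 and 376 CPM in set 1 and 855 and 828 CPM in set 2, and its CD4+Lrig1+ to CD4+Lrig1- ratio was 1.05 in set 1 and 1.03 in set 2. The 128 Trav segments of the alpha chain summed to 236 and 273 CPM in set 1 and to 322 and 395 CPM in set 2, with ratios of 0.865 (0.844 to 0.886) and 0.816 (0.800 to 0.832), so that in set 1 they were lower with surface Lrig1 by about as much as the heavy chain segments.

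**Figure D1:**
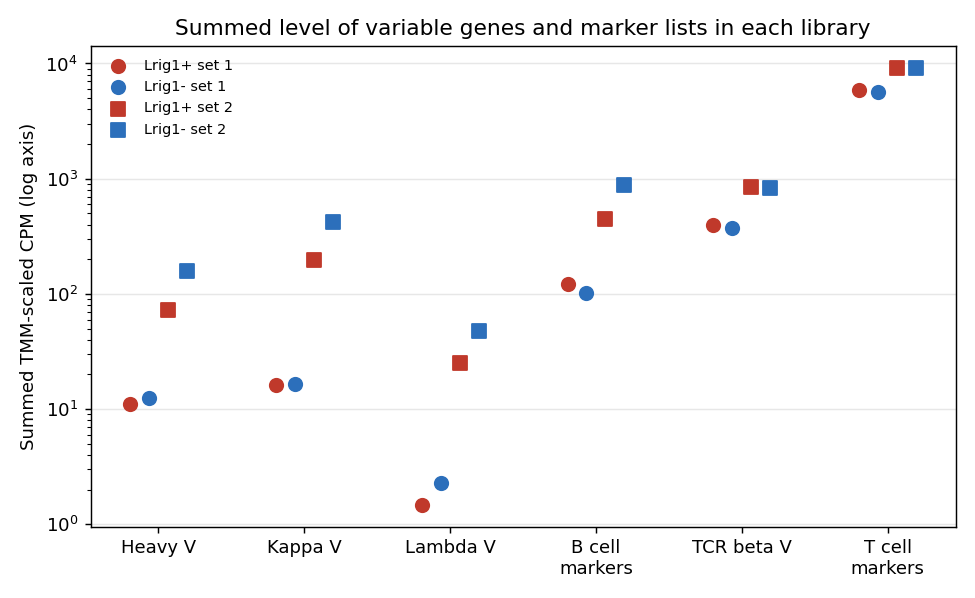
Summed level of the variable segments of each chain, of the B and T cell markers and of the Trbv segments (TCR beta V) in the 4 libraries, in TMM-scaled CPM on a log axis, with circles for set 1, squares for set 2, red for CD4+Lrig1+ and blue for CD4+Lrig1- T cells. The immunoglobulin sums separate by set, from 11.2 and 12.6 CPM to 72.3 and 158 CPM for the heavy chain, and within set 2 the CD4+Lrig1- library lies higher for all 3 chains.

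Segment by segment, no variable gene passed the test over all genes without a term for the set, a fit in which the difference between sets enters the spread within a group. Of the 348 segments, 228 had at least 1 count in any library (117 heavy, 108 kappa and 3 lambda), and 159 passed the filter on low counts (77 heavy, 79 kappa and 3 lambda), mostly through the counts of set 2. The edgeR quasi-likelihood test called 0 of 16123 genes lower (percent called 0.0) and 0 higher (0.0) among CD4+Lrig1+ T cells at a Benjamini-Hochberg adjusted p under 0.05, and 0 of the 159 segments in either direction. At an unadjusted p under 0.05 it gave 674 genes higher and 227 lower, none of them a variable segment, and the Wald test of DESeq2 called 263 genes higher and 50 lower, again none of them a segment. The median log2 fold change of the 159 segments was -0.98 beside -0.04 for all genes tested.

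With a term for the set in the same edgeR fit, which leaves 1 residual degree of freedom, 15 of the 159 segments (9.43%) had an adjusted p under 0.05 and were lower with surface Lrig1, and 0 were higher. The background was 12.8% of genes called lower and 14.6% called higher, so that the share of segments called lower was below that of all genes. The 15 segments were 3 heavy, 10 kappa and 2 lambda ones. At an unadjusted p under 0.05 this fit gave 45 of the 159 segments (28.3%) lower and 0 higher, beside 19.6% and 19.7% of all genes. The log2 ratio was below 0 in both sets for 71 of the 159 segments (44.7%, background 41.3%) and above 0 in both sets for 4 (2.52%, background 36.5%). Only 54 of the 348 segments had at least 20 counts in set 1, so many signs in that set rest on few counts. Ighv9-3, with 14 counts in each library of set 1, was below 0 there through the scaling alone. Ighv12-3, with 0 counts in both libraries of set 1, has no direction there.

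Igkv5-39 was the most abundant kappa segment in all 4 libraries. Its level was 1.62 CPM with Lrig1 and 1.5 CPM without it in set 1, from 84 and 72 counts, and 16.9 and 37.0 CPM in set 2, from 973 and 1996 counts. The groups overlapped, since the CD4+Lrig1+ library of set 2 was above the CD4+Lrig1- library of set 1. The log2 fold change with the set term was -0.74 ± 0.25 (SE, adjusted p = 0.065, edgeR), and within the sets the log2 ratio was 0.10 and -1.12.

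The next kappa segments, Igkv1-117 and Igkv1-110, which share much of their sequence as shown above, had the same order of libraries. Igkv1-117 gave 60 and 33 counts with and without Lrig1 in set 1 and 649 and 1682 counts in set 2, with log2 ratios of 0.71 and -1.46. Igkv1-110 gave 50 and 38 counts in set 1 and 522 and 1528 counts in set 2, with log2 ratios of 0.27 and -1.63. In both segments the direction turned between the sets, and the adjusted p with the set term was 0.157 and 0.061 (edgeR). Igkv10-96 also turned, with 1.06 and 0.46 CPM in set 1 and 6.58 and 14.3 CPM in set 2.

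Igkv1-135 kept its direction. It stood at 0.577 and 1.32 CPM with and without Lrig1 in set 1 and at 11.1 and 21.4 CPM in set 2, with a log2 fold change of -1.01 ± 0.16 (SE) with the set term and an adjusted p of 0.0033 (edgeR). Igkv8-27 was the called segment with the second smallest p of the same fit, at 8 and 25 counts in set 1 and 101 and 379 counts in set 2 (adjusted p = 0.0040). Igkv4-91 had 0 and 6 counts in set 1, which lies near the floor of 3 counts, and 38 and 212 counts in set 2 (adjusted p = 0.010). Igkv9-120, Igkv14-126, Igkv16-104 and Igkv19-93 were also lower with the set term, with adjusted p between 0.0093 and 0.027, and Igkv14-126 is annotated as a pseudogene in RefSeq.

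Among heavy chain segments, Ighv9-3, Ighv1-26 and Ighv1-55 had the highest mean levels. Ighv9-3 gave 14 counts in each library of set 1, and in set 2 it gave 275 with Lrig1 and 477 without. Ighv1-26 gave 32 and 21 counts in set 1 and 226 and 453 counts in set 2, and its log2 ratio was 0.46 in set 1 and -1.08 in set 2. Neither was called with the set term, with adjusted p of 0.108 and 0.323 (edgeR). Ighv1-55 was lower in both sets, at 0.462 and 0.919 CPM in set 1 and 2.39 and 7.26 CPM in set 2, with a log2 fold change of -1.37 ± 0.29 (SE, adjusted p = 0.012, edgeR with the set term).

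The other heavy chain segments called with the set term were Ighv1-53 and Ighv11-2. Ighv1-53 gave 10 and 19 counts in set 1 and 86 and 239 in set 2 (adjusted p = 0.026). Ighv11-2, a segment known for its use by B-1 cells, the innate-like B cells of the body cavities, gave 4 and 23 counts in set 1 and 65 and 167 in set 2 (adjusted p = 0.023). Few segments pointed the other way. Ighv7-1, a RefSeq pseudogene, had 6 and 0 counts in set 1 and 92 and 57 in set 2, and Igkv6-14 had 5 and 2 counts and then 103 and 74, and neither was called (adjusted p of 0.320 and 0.479).

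All 3 lambda segments were lower with surface Lrig1 in both sets. Iglv1 gave 49 and 56 counts in set 1 and 898 and 1635 in set 2, with a log2 fold change of -0.77 ± 0.17 (SE, adjusted p = 0.015, edgeR with the set term). Iglv2 gave 16 and 35 counts in set 1 and 421 and 680 in set 2 (adjusted p = 0.018), and Iglv3 gave 12 and 19 and then 124 and 265 (adjusted p = 0.051). Because Iglv1 and Iglv2 share part of their sequence, their values are not independent of each other.

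**Figure D2:**
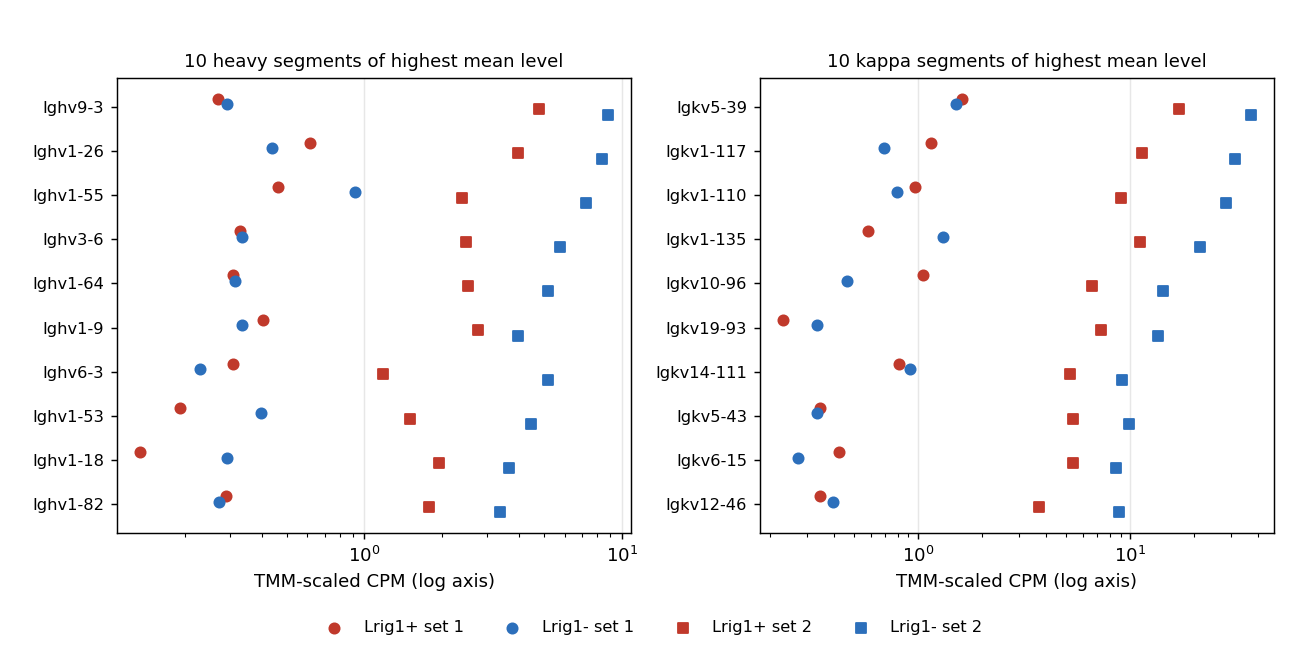
Level of the 10 heavy and the 10 kappa segments of highest mean level in each library, in TMM-scaled CPM on a log axis, with circles for set 1, squares for set 2, red for CD4+Lrig1+ and blue for CD4+Lrig1- T cells. Every square lies to the right of the circles of its segment, and every blue square to the right of its red square, while the circles fall in either order.

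Within each set the direction could be read over all segments with at least 20 counts in that set. In set 1, 54 segments had such depth and 36 of them (66.7%) were lower in CD4+Lrig1+ T cells, beside 49.2% of all genes, with a median log2 ratio of -0.14. By chain, 17 of 23 heavy, 16 of 28 kappa and 3 of 3 lambda segments were lower in set 1. In set 2, 165 of 174 segments (94.8%) were lower, beside 56.0% of all genes, with a median log2 ratio of -1.07. The medians of set 2 were -1.08 for the 83 heavy, -1.06 for the 88 kappa and -0.95 for the 3 lambda segments, and 80, 82 and 3 of them were lower. Segments of 1 library share their cells, so these counts describe the libraries and are no replicates of the conditions.

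The log2 ratios of set 2 spread around their median. Among segments with at least 50 counts in each library of set 2, the log2 ratio had an SD of 0.55 over 22 heavy segments, where counting error alone would give 0.19, and of 0.49 over 54 kappa segments, where it would give 0.16. All genes of that depth in set 2 had an SD of 0.65 where counting gives 0.096, and 21 Trbv segments one of 0.34 where it gives 0.061, so a spread beyond counting error was no feature of the immunoglobulin segments alone. At the lower end, Igkv4-69 gave 7 and 115 counts and Igkv4-50 gave 7 and 87 counts with and without Lrig1 in set 2, ratios of 0.057 (0.023 to 0.122) and 0.076 (0.030 to 0.163). In set 1 these 2 segments had 2 and 0 counts and 6 and 4 counts, too few to read a direction. Ighv6-3 gave 68 and 279 counts in set 2, a ratio of 0.229 (0.173 to 0.300), but 16 and 11 counts in set 1. In set 1 the widest ratio upward was that of Ighv8-12, with 18 and 2 counts, and the widest downward that of Igkv6-32, with 2 and 20 counts, followed by Ighv11-2. Ighv8-12 turned in set 2, with 95 and 134 counts, and Igkv6-32 did not, with 106 and 197 counts.

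**Figure D3:**
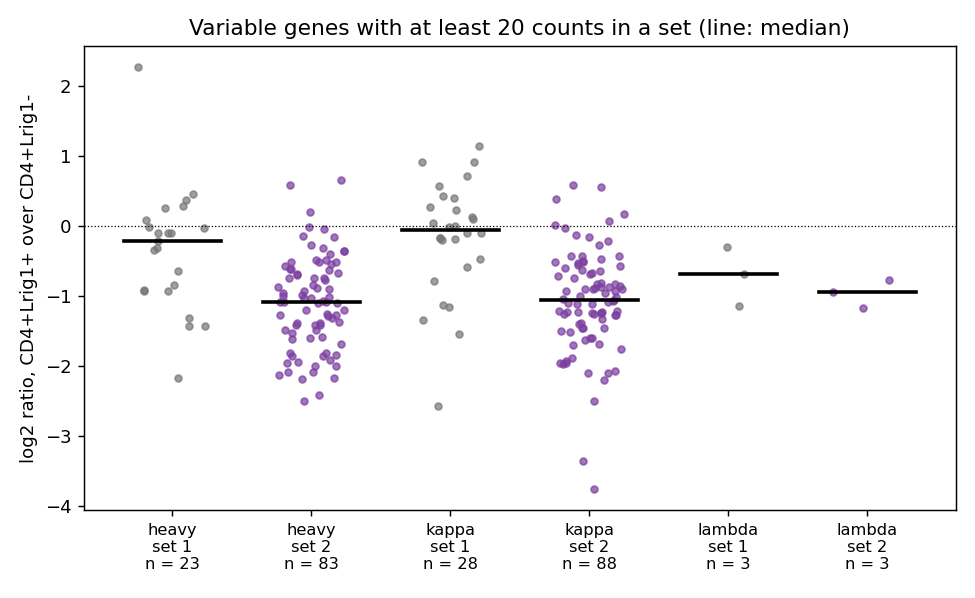
Log2 ratio of CD4+Lrig1+ to CD4+Lrig1- T cells for each segment (point) with at least 20 counts in a set, by chain and set, with set 1 in grey, set 2 in purple and a line at each median. In set 1 the points scatter on both sides of 0 with a median of -0.14, and in set 2 165 of 174 points lie below 0 with a median of -1.07.

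The chains kept their order by counts in every library, kappa above heavy above lambda. In set 1 heavy segments took 38.5% (Wilson interval 36.1% to 41.0%) of all variable counts with Lrig1 and 40.1% (37.7% to 42.6%) without it, and in set 2 they took 24.5% (23.8% to 25.1%) and 25.4% (24.9% to 25.8%). Kappa took 56.4% and 52.5% in set 1 and 67.0% in both libraries of set 2. Lambda took 5.10% (4.10% to 6.33%) and 7.33% (6.12% to 8.76%) in set 1 and 8.50% (8.09% to 8.93%) and 7.66% (7.38% to 7.95%) in set 2. The share of heavy chain counts thus differed more between sets than between CD4+Lrig1+ and CD4+Lrig1- T cells, and the intervals of the 2 groups overlapped within each set for the heavy chain.

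No single segment dominated the heavy chain or kappa. Igkv5-39 took 9.87% of kappa counts with Lrig1 and 9.14% without it in set 1, and 8.55% and 8.85% in set 2. The leading heavy chain segment was Ighv1-26 with 5.50% and Ighv1-55 with 7.31% in the 2 libraries of set 1, and Ighv9-3 with 6.63% and 5.58% in those of set 2. Counted per base of segment, Igkv5-39 still led in all 4 libraries, but Ighv1-26 led in the CD4+Lrig1- library of set 2, with 5.58% of the heavy chain. Iglv1 took 63.6% and 50.9% of lambda counts in set 1 and 62.2% and 63.4% in set 2. The 5 leading segments of each library together took 19.6% to 22.8% of heavy and 28.2% to 34.2% of kappa counts.

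The effective number of segments, the inverse Simpson index, says how many equally used segments would give the same concentration. For the heavy chain it was 49.1 with Lrig1 and 41.8 without it in set 1, and 45 and 46.9 in set 2. For kappa it was 28.6 and 28.4 in set 1 and 35.7 and 32.3 in set 2. The group means differed by 2.71 for heavy and 1.81 for kappa, each with an exact permutation p of 0.667, two-sided, and the smallest p possible was 0.33. With only segments of at least 10 counts in a library the heavy chain difference turned to -3.19, and the kappa difference became -0.13 when set 1 lost its CD4+Lrig1- and -1.74 when set 2 lost its CD4+Lrig1+ library. Between 16 and 19 heavy and between 11 and 15 kappa segments made up 50% of the counts of their chain. Among the T cell receptor segments of the same libraries, the 35 Trbv segments had an effective number of 14.6 to 16.1, with Trbv13-2 leading at 10.8% to 14.6% of their counts, and the 128 Trav segments one of 68.1 to 74.0. The effective number cannot exceed the number of segments in a family, so these values stand side by side and were not compared.

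**Figure D4:**
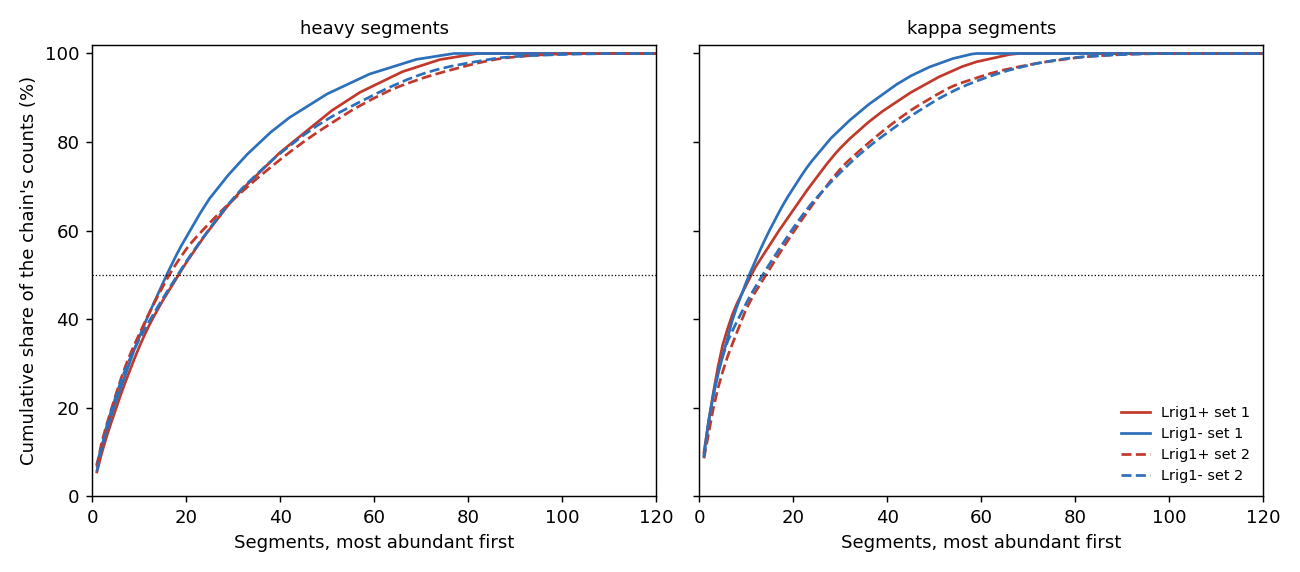
Cumulative share of the counts of a chain, in percent, against the rank of the segment within a library on a linear axis, for heavy and kappa segments in the 4 libraries, with full lines for set 1, dashed lines for set 2, red for CD4+Lrig1+ and blue for CD4+Lrig1- T cells. The curves cross the dotted line at 50% of the counts at 16 to 19 heavy and at 11 to 15 kappa segments.

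Usage of segments was most alike in the 2 libraries of set 2. Over 117 heavy chain segments the Pearson correlation of the segments' shares was 0.913 within set 2, 0.713 within set 1 and 0.671 to 0.805 across sets, and over 108 kappa segments it was 0.958, 0.824 and 0.856 to 0.899. These are descriptions across segments of libraries that differ in depth, since set 1 held 582 and 602 heavy chain counts and set 2 held 4150 and 8544. The libraries of set 2 shared 8 of their 10 leading heavy and 9 of their 10 leading kappa segments, and those of set 1 shared 4 and 6.

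By subgroup, the 92 Ighv1 segments, the large J558 family, took 52.0% to 59.8% of heavy chain counts in the 4 libraries and make up 50.3% of the heavy chain segments. The 6 Igkv5 segments, with Igkv5-39 among them, took 12.8% to 14.7% of kappa counts but make up 3.70% of kappa segments. The 13 Igkv1 segments took 16.9% to 20.4%, and the 33 Igkv4 segments, 20.4% of the kappa genes, took 10.4% to 13.3%. Among these 4 subgroups, the shares of Ighv1 and Igkv5 were higher with surface Lrig1 in both sets. They were 59.8% against 56.5% and 54.0% against 52.0% for Ighv1, and 14.7% against 12.8% and 13.8% against 13.4% for Igkv5. The shares of Igkv1 and Igkv4 turned between the sets. These shares have no interval and their differences were not tested.

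The light chain constant genes, to whose RNA the V segments are joined, separated the sets as the variable sums did, and Ighm separated them less. Igkc, the kappa constant region, stood at 24.2 and 21.4 CPM with and without Lrig1 in set 1 and at 228 and 445 CPM in set 2. Kappa variable counts per Igkc count were 0.675 and 0.770 in set 1 and 0.869 and 0.939 in set 2. Ighm, the constant gene of IgM, stood at 728 and 427 CPM in set 1 and at 1301 and 1513 CPM in set 2. Heavy variable counts per Ighm count were 0.015 and 0.029 in set 1 and 0.056 and 0.105 in set 2, so that each CD4+Lrig1+ library had fewer of them than the CD4+Lrig1- library of its set. Per count on the other heavy constant genes, Ighd, Ighg1, Ighg2b, Ighg2c, Ighg3, Igha and Ighe, heavy variable counts were 0.468 and 0.757 in set 1 and 0.750 and 0.799 in set 2. Lambda variable counts per Iglc count were 0.291 and 0.385 in set 1 and 0.459 and 0.441 in set 2. The segments and constant regions differ in length, so these ratios are compared between libraries only.

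**Figure D5:**
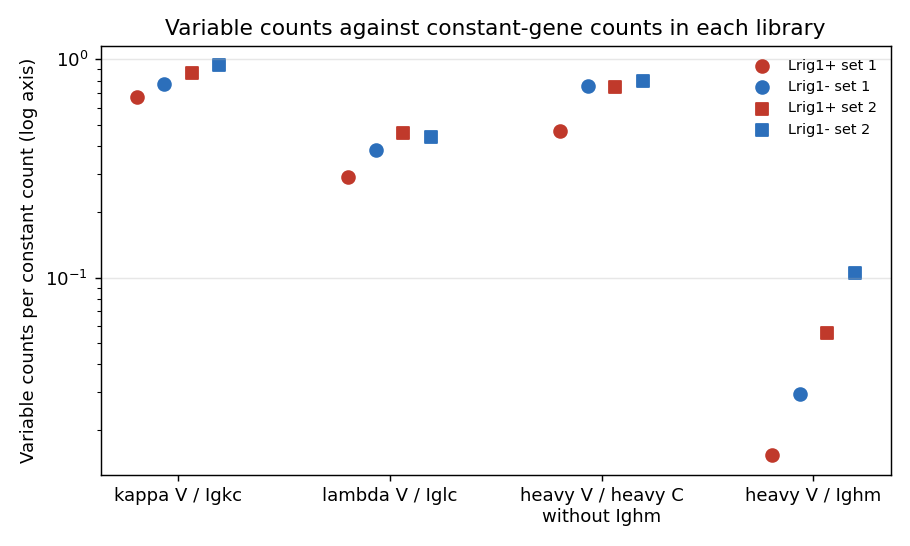
Variable counts per constant count in the 4 libraries, on a log axis, for kappa over Igkc, lambda over the Iglc genes, heavy over Ighm and heavy over the other heavy constant genes, with circles for set 1, squares for set 2, red for CD4+Lrig1+ and blue for CD4+Lrig1- T cells. The heavy over Ighm ratios with and without Lrig1 are 0.015 and 0.029 in set 1 and 0.056 and 0.105 in set 2.

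Of 14 constant genes, with the IgM and IgA joining chain Jchain counted among them, 12 were tested and 0 were called without the set term. With it, Iglc1, Iglc2 and Iglc3 were lower in CD4+Lrig1+ T cells (3 of 12) and 0 were higher, beside 12.8% and 14.6% of all genes, with a median log2 fold change of -0.48 beside -0.04 for all genes. Of the 6 receptor partner and surrogate light chain genes, 4 were tested and 0 were called in either fit. Cd79a, which carries the signal of the B cell receptor, stood at 11 and 11.2 CPM in set 1 and at 87.5 and 182 CPM in set 2. Its partner Cd79b stood at 13.5 and 6.85 CPM in set 1 and at 93.6 and 146 CPM in set 2. Vpreb2, a part of the surrogate light chain, had 0 counts in all 4 libraries. Vpreb1 was present in each, with 32 and 18 counts with and without Lrig1 in set 1 and 46 and 29 in set 2. Vpreb3 gave 13 and 8 counts and then 160 and 370, and Igll1 gave 0 and 0 and then 3 and 0.

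Of the 5 recombination and diversification genes 3 were tested, and Dntt, the polymerase that adds bases at V(D)J joints, was lower in CD4+Lrig1+ T cells with the set term, at 2.62 and 7.75 CPM in set 1 and 2.59 and 14.1 CPM in set 2. Rag2, the partner of Rag1 in the recombinase, had 0 counts in all 4 libraries, which for each library allows up to 0.052 to 0.063 CPM. Rag1 itself had 0 and 4 counts with and without Lrig1 in set 1 and 2 and 20 in set 2, and did not pass the filter on low counts. The 3 octamer factors act on V promoters. Pou2f2 was higher in CD4+Lrig1+ T cells with the set term, at 239 and 54.6 CPM in set 1 and 77.5 and 20.9 CPM in set 2, as was its coactivator Pou2af1, at 35.9 and 16.2 CPM and then 68.8 and 58.5 CPM. Pou2f1 was lower, at 97.0 and 119 CPM and then 25.3 and 33.4 CPM.

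As a sum, the B cell markers were lower with surface Lrig1 in set 2, as the variable genes were, but not in set 1. The log2 ratio of their sum was 0.27 in set 1, where that of all variable segments was -0.11, and -0.97 in set 2, where that of the segments was -1.08, and the median over the 14 genes was -0.05 and -1.13. Ms4a1, which encodes CD20, stood at 5.77 and 6.79 CPM in set 1 and at 69.3 and 150 CPM in set 2. Cd22 and Cd79b were higher with surface Lrig1 in set 1, at 32.8 and 16.2 CPM and at 13.5 and 6.85 CPM. In set 2 both were lower, at 37.0 and 54.0 CPM and at 93.6 and 146 CPM. Of the 14 markers, 8 were lower in both sets and 0 higher in both, beside 41.3% and 36.5% of all genes tested. With the set term 3 of the 14 markers were lower and 0 higher in CD4+Lrig1+ T cells, beside 12.8% and 14.6% of all genes. The 9 plasma cell genes summed to 208 and 93.5 CPM in set 1 and to 338 and 294 CPM in set 2. That sum includes Irf4 and Xbp1, which T cells also express. In the fit with the set term 1 of the 8 tested was lower and 3 were higher. Jchain, Mzb1 and Sdc1 were lower with surface Lrig1 in set 2, at 39.5 and 80.4, 13.3 and 25.9, and 2.02 and 3.22 CPM. In set 1 they stood at 3.33 and 2.88, 0.942 and 1.13, and 0.288 and 0.522 CPM. Of the 8 tested, 2 were lower in both sets and 5 higher in both, beside 41.3% and 36.5% of all genes. The 2 were Mzb1 and Sdc1, and the 5 were Irf4, Xbp1, Derl3, Pou2af1 and Prdm1. The log2 ratios of sets 1 and 2 were 2.29 and 1.66 for Irf4, 0.52 and 0.45 for Xbp1 and 1.71 and 0.58 for Derl3. For Pou2af1 they were 1.14 and 0.23, and for Prdm1 0.09 and 0.03. The part of B and plasma cells in the differences between libraries was not tested.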

How the data were processed

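RNA from CD4+Lrig1+ and CD4+Lrig1- splenic T cells was sequenced from stranded, poly(A)-selected libraries by the authors. Per the labels and the methods, the authors used Trimmomatic 0.38, HISAT2 2.1.0, Bowtie2 2.3.4.1 and StringTie 2.1.3b with the builds GRCm38 and mm10. The estimated counts deposited for 129299 transcripts are whole numbers, were made with StringTie by the authors and are not normalized. The FPKM values deposited beside them are scaled by the authors for transcript length and mapped fragments, and the TPM values deposited by the authors, which sum to the same total in each library, were not used. The coordinates of all 348 variable genes equal those of RefSeq GRCm38. The 6 columns of per-sample values in a further table were not used, because their names do not give the group.

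Counts were summed per gene (45777 genes), filtered with filterByExpr, scaled by TMM and tested with the quasi-likelihood test of edgeR 4.0.16 in R 4.3.3, with Benjamini-Hochberg adjustment over 16123 genes and a threshold of 0.05. Log2 ratios of single segments were made with a prior count of 2 and those of sums with none, with exact conditional intervals at a level of 95%. The columns carry no replicate numbers, so the table that holds a library served as the block, in an alternative with 1 residual degree of freedom. Other alternatives were DESeq2 1.42.0, its size factors, other filters, limma 3.58.1 on FPKM with pseudocounts of 1 and 0.1 before the log2, scaling without immunoglobulin genes, thinning, Shannon's index, and each library left out. The fits were tried on simulated counts with the mean of each set taken from the libraries and shared by both groups. Spread was fixed in advance, and changes were placed only in genes of higher mean level than any heavy chain segment. There the fit without the set term recovered no changed gene and the fit with it recovered them all. Because the set difference and the spread were built in, this outcome favours neither fit for the real libraries. It also cannot say how the fits behave for segments of low counts. Files were read with Python 3.11.15. A level of 3 counts served as the floor.

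Genes named were drawn from the following lists, and not every member of a list is named. The first held the 10 heavy and the 10 kappa segments of highest mean level, the lambda segments and the leading segment of each library. Also listed were the 10 segments with the smallest p among those called and the 5 widest ratios in each direction in each set. The last were the marker and pathway lists. The members, lists and rules were chosen with earlier results of these data known. Promoters of V segments were not analysed here.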

Additional observations from a re-analysis of the deposited data

How the results depend on the processing

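The count of genes called was 0 in the edgeR fit, 313 with the DESeq2 Wald test (263 higher, 50 lower), 4414 with the table as the replicate block (2358 higher, 2056 lower) and 2 to 90 when each library was left out, with 5 and 90 on leaving out the CD4+Lrig1+ or the CD4+Lrig1- library of set 1 and 41 and 2 for those of set 2. For variable genes it was 0, 15 with the table as the replicate block, 0 to 0 when a library was left out and 0 under the other alternatives. The set is no term of the fits that leave out a library. The summed levels (log2, CD4+Lrig1+ minus CD4+Lrig1-) ranged from -2.48 to 1.18 for heavy, -2.87 to 1.79 for kappa and -2.97 to 1.41 for lambda segments when a library was left out. They turned to 0.70, 1.26 and 1.26 on leaving out set 1's CD4+Lrig1+ library and to 1.18, 1.79 and 1.41 without the CD4+Lrig1- library of set 2. Under the other alternatives they kept their direction, at -0.67 to -0.59, -0.56 to -0.49 and -0.80 to -0.72. Pairing by table, which is among them, leaves these mean differences unchanged by construction and so is no check of their direction. Leaving out the 3 highest segments leaves none for lambda.

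The difference in effective number was -3.19 for heavy segments with at least 10 counts and 0.12 to 5.30 without 1 library. For kappa it was -1.74 to 5.36 without 1 library, at -0.13 when set 1 lost its CD4+Lrig1- and -1.74 when set 2 lost its CD4+Lrig1+ library. The planned test of the effective numbers against Trbv is not reported, since the 35 Trbv segments cap theirs. The libraries of set 1, with 1510 and 1500 variable counts, limit every ratio within that set.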

Other observations

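Variable genes annotated as functional and as pseudogenes differed in their counts. Of the 348 segments, RefSeq annotates 225 as functional, and 208 of these had a count in at least 1 library and held 97.7% of all variable counts. Of the 123 pseudogenes, 20 had a count and together held 2.28%. The 3 with the most counts, Igkv14-126, Ighv7-3 and Ighv7-1, are listed as functional V genes in GENCODE M21. Igkv14-126 gave the most of these pseudogene counts, with 14 and 31 counts with and without Lrig1 in set 1 and 193 and 444 counts in set 2.

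Position along the locus was described by ranking the segments by distance from the constant gene and cutting them into 3 equal parts. The 61 heavy chain segments farthest from Ighm took 43.6% and 39.2% of heavy chain counts with and without Lrig1 in set 1 and 35.7% and 35% in set 2. For kappa, the 54 segments in the middle of the locus took 13.4% and 10.8% in set 1 and 14.4% and 15.2% in set 2, below either end of the locus in all 4 libraries. From the nearest to the farthest part, 22, 26 and 15 of the 61 heavy segments and 11, 24 and 25 of the 54 kappa segments were pseudogenes. Position and the number of pseudogenes were not separated. The log2 ratio of the summed level in set 2 lay between -1.19 and -0.98 in all 6 parts.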
